A study of Mus musculus with 2 samples.

Results

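The 10 genes described here encode 8 laminin chains and both nidogens, the linker glycoproteins of basement membranes. They were taken by name from a fixed list, as every probe set whose platform annotation gave exactly 1 gene symbol from that list. This gave 20 probe sets for 10 of the 18193 genes on the array, and no further probe set carried a listed symbol beside a second gene. A probe set is a group of short probes against 1 transcript, and its value is 1 intensity per array.

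RNA came from glomeruli, the filtering capillary tufts of the kidney, which had been separated from male C57BL/6J kidneys by passage through sieves of decreasing mesh. All mice carried GC-A fl/fl and p38 fl/fl, that is, floxed alleles of the guanylyl cyclase A receptor for natriuretic peptides and of a p38 stress kinase. The double knockout group also carried Nephrin-Cre (Cre/+), in which the nephrin promoter is used to drive the recombinase in podocytes. Where recombination took place in these mice was not measured by the arrays. The floxed control group was Nephrin-Cre (+/+), read here as carrying no Cre allele. Both groups were 2 months old and were given food with 6% NaCl together with aldosterone from an osmotic minipump at 0.2 μg per kg of body weight per minute for 3 weeks. There was no group without this salt and hormone load. Each group had 1 array. How many mice an array represents is not stated in the labels. No test between animals is therefore possible, and higher or lower describes the double knockout array against the control array.

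Laminins are trimers of 1 α, 1 β and 1 γ chain that are secreted whole. Many of them, though not all, are cross-shaped and polymerise into a sheet on the cell surface. Nidogens bind the γ1 chain and tie that sheet to the collagen IV network. The glomerular basement membrane lies between podocytes and endothelium and is built by both. During development its laminin passes from α1β1γ1 to α5β1γ1 and then to α5β2γ1, the main form of the mature filter. Loss of the β2 chain causes Pierson syndrome, a congenital nephrotic disease. The α2 and α4 chains are otherwise known from mesangial matrix, muscle and vessels, and α3 from epithelia.

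Intensities were on the linear MAS5 scale, on which both arrays had the same trimmed mean. Signals below a floor of 52.7, the mean of the 40th percentiles of the arrays, were raised to it, and 13290 genes reached it on at least 1 array. Npr1, which encodes GC-A, read 102 in the double knockout against 167 in the control (log2 difference -0.71). Mapk14, taken as the floxed p38 gene although the labels name no isoform, read 2607 and 2628 in its brightest probe set. Whether these probe sets lie in the floxed exons is not given in the sources used here, so they do not check the labels. Marker genes of glomerular and tubular cells were also read. All 19 podocyte markers, 18 endothelial markers and 13 mesangial and mural markers with a named probe set were measured, but so were all 19 proximal tubule markers. Reaching the floor therefore does not check the glomerular origin. The tissue contained tubular RNA on both arrays.

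Laminin and nidogen transcripts were mostly higher in the double knockout as the arrays were scaled, and unevenly so. Relative to the median of glomerular cell markers, 4 genes were higher and 6 lower by their brightest probe sets. Of 13290 measured genes, 1558 were higher and 11731 lower on that scale. Before such recentring, 8 of 10 genes were above 0 and 2 below, whereas 56.1% of all measured genes were above 0. The α4 chain gene Lama4 (2.07-fold), Nid1 (1.87-fold), the β2 chain gene Lamb2 (1.84-fold) and the γ1 chain gene Lamc1 (1.70-fold) stood highest, and the α2 chain gene Lama2 (1.26-fold lower) stood lowest. The median log2 difference of the 10 genes was 0.39, and that of all measured genes was 0.07. Only Lama4 reached 2-fold, which is 1 of 10 genes, where 3.53% of measured genes were at least 2-fold higher. With the arrays centred on their medians Lama4 read 0.96, and no gene reached 2-fold. No laminin or nidogen gene was at least 2-fold lower, against 2.87% of measured genes. At 1.5-fold the count was 4 of 10 higher, with 13.7% of measured genes, and 0 of 10 lower, with 10% of measured genes. None reached 3-fold, which 0.549% of measured genes did upward and 0.256% downward.

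**Figure D1:**
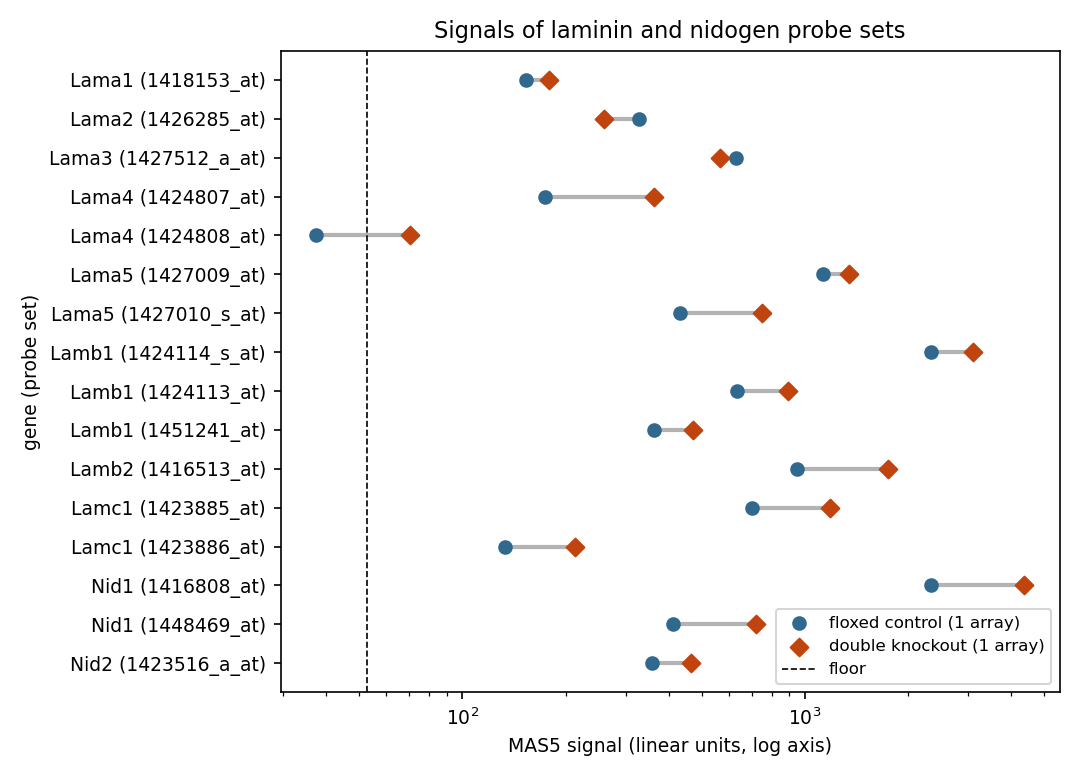
Signal of each laminin and nidogen probe set that reached the floor on at least 1 array (x axis, MAS5 signal in linear units on a log axis; y axis, gene and probe set), with circles for the floxed control, diamonds for the double knockout, 1 array each, and a dashed line at the floor of 52.7. The diamond lies to the right of the circle in every row except those of Lama2 and Lama3, before any recentring on cell markers.

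Of the 20 probe sets, 15 were at or above the floor on both arrays, 1 only in the double knockout and 4 on neither. Among the 15, 13 were higher in the double knockout and 2 lower, with a median log2 difference of 0.49. Of the 16 on at least 1 array, 1 was at least 2-fold higher, where 3.27% of measured probe sets were, and none was at least 2-fold lower, where 2.39% were. With no replicate, the spread between probe sets of 1 gene was the only yardstick of technical error at hand, and a partial one. It does not cover the spread between animals, nor any error that the probe sets of an array share. Over 5418 genes with several probe sets above the floor on both arrays, the median SD between them was 0.18 on the log2 scale. For genes with exactly 2 such probe sets the median gap was 0.22.

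The α chains, which carry the receptor-binding domains and set the identity of a laminin, diverged most. Lama4, whose product is found in endothelial basement membranes and mesangial matrix, read 361 in the double knockout against 175 in the control, a log2 difference of 1.05. This was above 95.8% of the 500 genes closest in mean signal, whose differences had a robust SD of 0.45. A second Lama4 probe set read 70.1 in the double knockout against 37.3 in the control. The control lay below the floor there, which makes that gene at least 1.33-fold higher by this probe set. Both probe sets were thus higher in the double knockout, but only the brighter one passed 2-fold.

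Lama5, the α chain of the mature glomerular basement membrane, gave different sizes by probe set. Its brighter probe set read 1341 in the double knockout against 1126 in the control, a log2 difference of 0.25. The other, of the type that may detect related transcripts (suffix _s_at), read 748 and 432, a difference of 0.79. Both were higher in the double knockout, but the gap between them of 0.54 was larger than that of 84.6% of the 3353 genes with 2 such probe sets. The size of the Lama5 difference was therefore not settled by this array. The remaining Lama5 probe set was below the floor on both arrays.

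Lama1, the α chain of early nephron basement membranes, read 179 in the double knockout against 153 in the control, a difference of 0.22. That is the 50.2 percentile of genes of like signal, in the middle of them. Lama2, the α chain of muscle and mesangial laminin, read 260 in the double knockout against 328 in the control, a difference of -0.34 at the 15.4 percentile. Lama3, the α chain of epithelial anchoring laminin, read 565 in the double knockout against 631 in the control, a difference of -0.16 at the 25 percentile. These 2 genes were the only laminins of the list with a lower signal in the double knockout, and both differences were under 1 robust SD of genes of like signal (0.44 and 0.38). Each rested on 1 probe set above the floor, since the second Lama3 probe set was below it on both arrays.

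**Figure D2:**
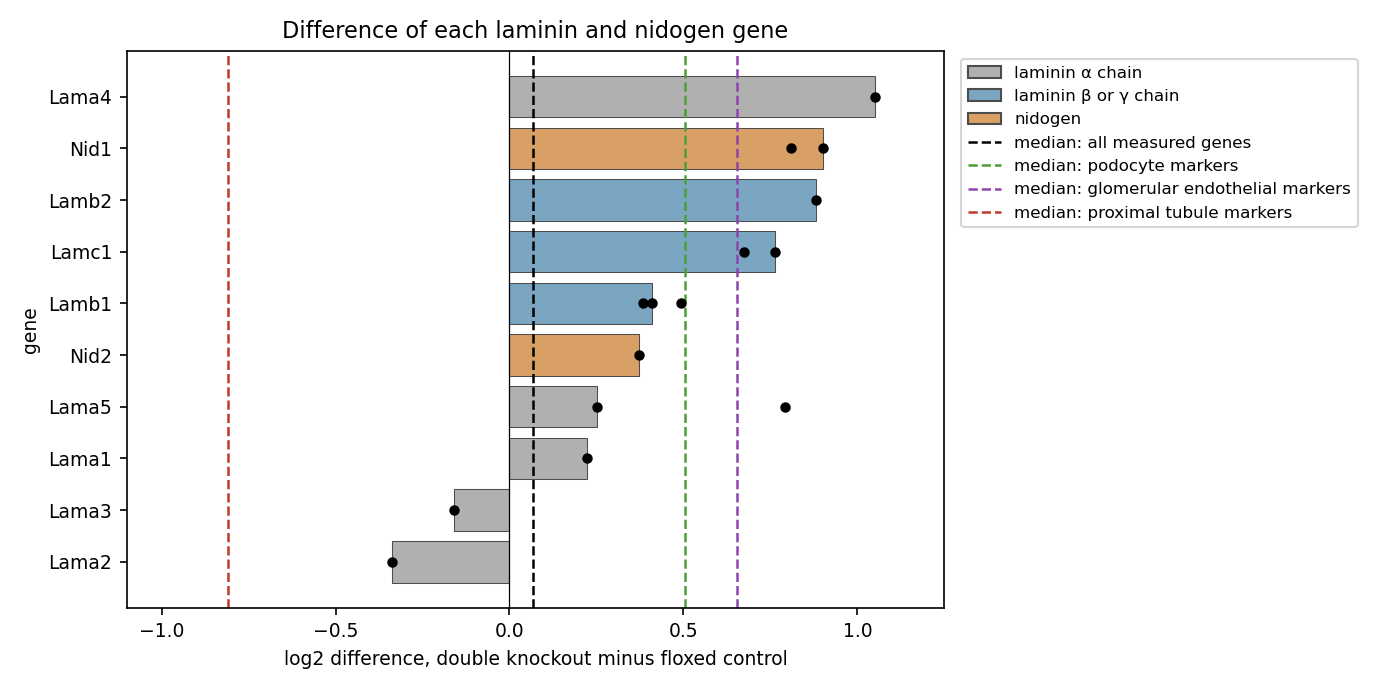
Log2 difference of each gene, double knockout minus floxed control (x axis), with genes on the y axis ordered by size, bars for the brightest probe set, black points for each probe set at or above the floor on both arrays, and dashed lines for the medians of all measured genes and of marker lists. Lama4, Nid1, Lamb2 and Lamc1 lie beyond the medians of podocyte (0.51) and glomerular endothelial (0.65) markers, and the other 6 genes lie between the proximal tubule median (-0.81) and the podocyte median by their brightest probe sets.

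Both β chain genes and the γ1 gene were higher in the double knockout. Lamb2, the β chain of the mature filter, read 1746 in the double knockout against 948 in the control, a log2 difference of 0.88 at the 94.8 percentile of genes of like signal. Lamb1, its counterpart in early and mesangial laminins, read 3095 in the double knockout against 2328 in the control, a difference of 0.41 at the 81.8 percentile, in a probe set that likewise has the suffix _s_at. The other Lamb1 probe sets above the floor gave 0.49 (890 against 632) and 0.38 (472 against 362). All of them lay below the single Lamb2 value. These Lamb1 probe sets derive from the same source sequence in the platform annotation and are not independent measurements of the gene.

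Lamc1 encodes the γ chain that is shared by most laminins of the glomerulus. Its brighter probe set read 1186 in the double knockout against 699 in the control, a difference of 0.76 at the 92.0 percentile. The other read 213 and 133, a difference of 0.67. The difference between these probe sets was 0.09, smaller than the median gap of 0.22.

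Nid1 and Nid2 encode nidogen-1 and nidogen-2, which can stand in for each other in part in basement membrane assembly. Nid1 read 4368 in the double knockout against 2339 in the control, a difference of 0.90 at the 96.2 percentile. Its second probe set read 720 and 411, a difference of 0.81, and another was below the floor on both arrays. Nid2 had 1 probe set, which read 464 in the double knockout against 359 in the control, a difference of 0.37 at the 70.6 percentile. Both nidogens were higher, Nid1 by more.

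Differences between genes within the family do not depend on a constant scaling of the arrays. Lamb2 exceeded Lamb1 by 0.47 on the log2 scale (0.39 to 0.50 over the pairs of probe sets). The ratio of β2 to β1 signal was thus 1.39-fold higher in the double knockout. Nid1 exceeded Nid2 by 0.53 (0.44 to 0.53 over probe sets). By its brighter probe set, Lama4 exceeded Lama2 by 1.39, the widest gap among the genes. Against Lama5 the lead of that Lama4 probe set was 0.80 with the brighter Lama5 probe set and 0.26 with the other. The second Lama4 probe set, with its control below the floor, was left out here. It gives only a lower bound of 0.41, which is below the 0.79 of the second Lama5 probe set. Nid1, Lamb2 and Lamc1 lay close together, with Nid1 ahead of Lamc1 by 0.14 and Lamb2 ahead of Lamc1 by 0.12. Both gaps are smaller than the median SD between probe sets of 1 gene. None of these gaps could be tested between animals.

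Set out by known trimers, the chains of α5β2γ1 differed by 0.25 (Lama5), 0.88 (Lamb2) and 0.76 (Lamc1), and by 0.79, 0.88 and 0.76 with the second Lama5 probe set. For α4β1γ1 the differences were 1.05, 0.41 and 0.76. For the early α1β1γ1 they were 0.22, 0.41 and 0.76, and for α2β1γ1 -0.34, 0.41 and 0.76. Of these trimers α2β1γ1 spanned the most, 1.10 from its lowest to its highest chain. The values are transcript differences only, and the assembled proteins were not measured.

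Sequence just before the annotated start was available for few of these genes. The RefSeq promoter table of GRCm38.p6 held 5 of the 10 genes, and for 3 it covered the 200 bases before the outermost annotated start. Among these genes, Nid1 and Lamb2 had almost the same difference, and Lama5 encodes the partner chain of Lamb2. All 3 windows are shown. Each is written 5′ to 3′ on the strand of the gene, with capitals marking the motifs searched on both strands. These were the GC box, spelled GGGCGG, the CCAAT box, the TATA box, spelled TATAAA, and the E-box, spelled CACGTG, and no pair of them shares letters in these windows.
Nid1, chr13:13437402-13437601, plus strand: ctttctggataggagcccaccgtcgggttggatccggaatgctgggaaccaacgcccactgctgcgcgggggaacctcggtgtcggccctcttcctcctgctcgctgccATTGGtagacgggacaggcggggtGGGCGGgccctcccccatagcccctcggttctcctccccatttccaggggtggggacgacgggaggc
Lamb2, chr9:108479647-108479846, plus strand: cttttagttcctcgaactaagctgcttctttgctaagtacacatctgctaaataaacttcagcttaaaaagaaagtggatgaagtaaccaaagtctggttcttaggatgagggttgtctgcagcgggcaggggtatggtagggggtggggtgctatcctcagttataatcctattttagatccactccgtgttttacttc
Lama5, chr2:180225905-180226104, minus strand: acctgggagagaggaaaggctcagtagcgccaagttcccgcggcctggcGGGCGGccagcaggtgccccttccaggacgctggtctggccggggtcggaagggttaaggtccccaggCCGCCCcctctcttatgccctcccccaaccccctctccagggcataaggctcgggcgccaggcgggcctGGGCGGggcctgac

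The windows of Nid1 and Lamb2 were unlike in composition. The Nid1 window was 68.0% G or C with 15 CpG and held 1 GC box and 1 CCAAT box. The Lamb2 window was 43.0% G or C with 3 CpG and held none of the motifs. The Lama5 window was 71.5% G or C with 13 CpG and held 3 GC boxes. Over 21982 genes with such a window the median was 51.5% G or C with 4 CpG. A GC box occurred in 27.4% of these windows, a CCAAT box in 30.4%, a TATA box in 11.6% and an E-box in 4.99%. The motifs are letter matches and not measured binding sites. The annotation also places a non-coding RNA gene, Gm52542, across the Lama5 window and the end of a pseudogene, Gm7426, within the Nid1 window.

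Lamb3 and Lamc3 were read beside the listed chains. Lamb3, the β chain of the epithelial laminin that holds α3, read 109 in the double knockout against 58.4 in the control, a difference of 0.91 (1.87-fold). Its control signal lay just above the floor. Lamc3, another γ chain, read 107 in the double knockout against 128 in the control, a difference of -0.25, and its second probe set gave -0.23. Lama3 and Lamb3, which share that trimer, thus pointed in opposite directions at these signals.

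Other basement membrane genes were mostly higher as the arrays were scaled, but not relative to glomerular cell markers. The list of 23 holds collagen IV chains, proteoglycans and associated glycoproteins. It had a median of 0.69, with 20 genes above 0, 3 below and 5 at least 2-fold higher, while no gene was 2-fold lower, where 3.53% and 2.87% of measured genes were. Relative to the median of the pooled glomerular markers, which is defined with the cell type lists, the median was 0.05, with 12 genes above and 11 below. None of the 5 was then at least 2-fold higher (Hspg2, the highest, was at 0.69), and the 3 genes below 0 were at least 2-fold lower. The 5 genes were Hspg2, which encodes the proteoglycan perlecan (2.52-fold in an _s_at probe set, log2 0.78 in its second probe set against 1.33), Frem1, of the Fraser complex (2.41-fold), Smoc2, a calcium-binding matricellular protein (2.09-fold), Pxdn, the peroxidase that crosslinks collagen IV (2.07-fold), and Fbln2, fibulin-2, which binds laminin and nidogen (2.02-fold). The genes below 0, named after their values were seen, were Tinag (-0.85), which encodes a tubular basement membrane antigen, Egflam (-0.47), which encodes the dystroglycan ligand pikachurin, and Fbln1 (-0.41), which encodes fibulin-1. By their brightest probe sets, the 6 collagen IV genes of the list ran from 0.23 to 0.88 with a median of 0.72. A second Col4a6 probe set passed 2-fold, at 1.77 against 0.86 in the brightest. The other probe sets of Col4a1, Col4a3, Col4a4 and Col4a5 lay from 0.18 to 0.88. Agrn, which encodes the laminin-binding proteoglycan agrin and was also picked after its value was seen, read 0.87, next to the 0.88 of Lamb2.

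Laminin receptor genes spanned a narrower range by their brightest probe sets. By these, all 10 measured genes of that list were above 0, none was at least 2-fold different, and the median was 0.43. Other probe sets of Itga3 (1.39) and Itgb1 (1.06) passed 2-fold, and another of Itga1 was below 0 (-0.08). Relative to the pooled glomerular markers the median was -0.20, with 2 genes above (Itga3 and Bcam) and 8 below. Of all measured genes, 1558 were above that marker median and 11731 below. The highest before that recentring were Itga3, the integrin α3 chain by which podocytes hold laminin (0.76, other probe sets 0.76 and 1.39), Bcam, a receptor for the α5 chain (0.75), Dag1, which encodes dystroglycan (0.64, other probe sets from 0.77 to 0.92), and Cd151, a tetraspanin partner of integrin α3β1 (0.53, other probe sets from 0.15 to 0.54). Of 8 enzymes that build the laminin-binding glycan of dystroglycan, 4 were measured, with a median of -0.02 and a range from -0.33 (Pomt1) to 0.06 (Pomgnt1). The other 2 measured were B4gat1 (-0.04) and Pomt2 (0.0031, second probe set 0.43).

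**Figure D3:**
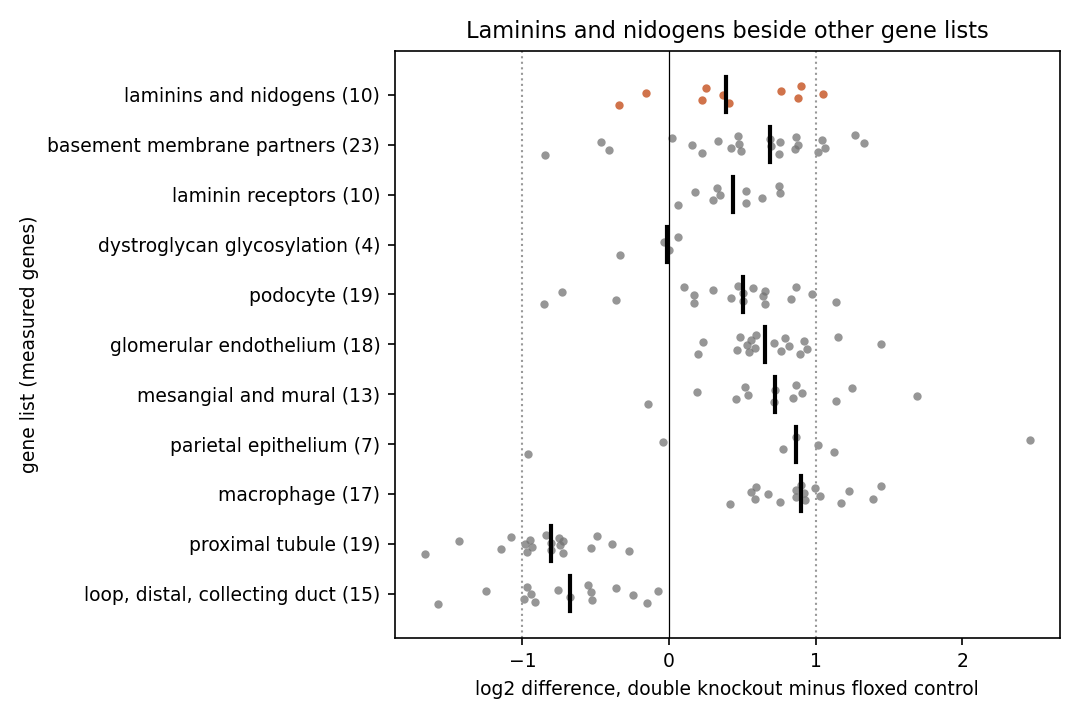
Log2 difference of each measured gene, double knockout minus floxed control (x axis), by gene list with the number measured (y axis), with 1 point per gene, a black bar at the list median and dotted lines at 2-fold. The laminins and nidogens (median 0.39) spread from -0.34 to 1.05, left of the basement membrane partners (0.69) and right of both tubule lists (-0.81 and -0.67).

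Cell type markers differed between the arrays, and these differences accompany every value above. All 19 proximal tubule markers were below 0, with a median of -0.81, and their summed signal was 179270 in the double knockout against 286342 in the control. For the distal nephron, from the loop of Henle to the collecting duct, the median was -0.67, all 15 markers were below 0, and the summed signals were 45242 and 64144. Podocyte markers had a median of 0.51 with 16 of 19 above 0 (125760 and 104693), and glomerular endothelial markers a median of 0.65 with all 18 above 0 (91878 and 61857). Mesangial and mural markers had a median of 0.72 with 12 of 13 above 0 (43006 and 26434), and parietal epithelial markers 0.86 with 5 of 7 above 0 (13184 and 9508). Macrophage markers had a median of 0.90, with all 17 measured of 18 above 0 (17549 and 9675), and Cd163 was below the floor on both arrays. In RNA from a mixture of cells, such as these sieved glomeruli with tubular RNA, fewer cells of a type and less RNA per cell cannot be told apart. The part of cell composition in the laminin and nidogen differences was not tested.

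The pooled markers of podocytes, endothelium, mesangium and parietal epithelium had a median over 57 genes of 0.64, with quartiles of 0.46 and 0.87. The members lay on both sides of that median by their brightest probe sets. Lama4 lay 0.41 above it, Nid1 0.26, Lamb2 0.24 and Lamc1 0.13. Lamc1 (0.76, second probe set 0.67) was within the marker quartiles, and Lamb2 (0.88) and Nid1 (0.90) were just above the upper one. Lamb1 lay at -0.23 relative to it, Nid2 at -0.27, Lama5 at -0.39 and Lama1 at -0.41. Lama3 and Lama2 lay farthest below, at -0.80 and -0.98. With the second Lama5 probe set (0.79) that gene would lie above the marker median. The second Lama4 probe set (at least 0.41) does not settle on which side Lama4 lies. Against the podocyte list alone the same 4 genes were above, with Lama4 at 0.55, Nid1 at 0.40, Lamb2 at 0.38 and Lamc1 at 0.26. Against the parietal list, which rests on 7 genes, Lama4 was at 0.19, Nid1 at 0.04 and Lamb2 at 0.02, and Lamc1 was at -0.10. Relative to that list Lama2 and Lama3 would count as at least 2-fold lower, at -1.20 and -1.02. So would 4290 of 13290 measured genes, so this is not particular to them.

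**Figure D4:**
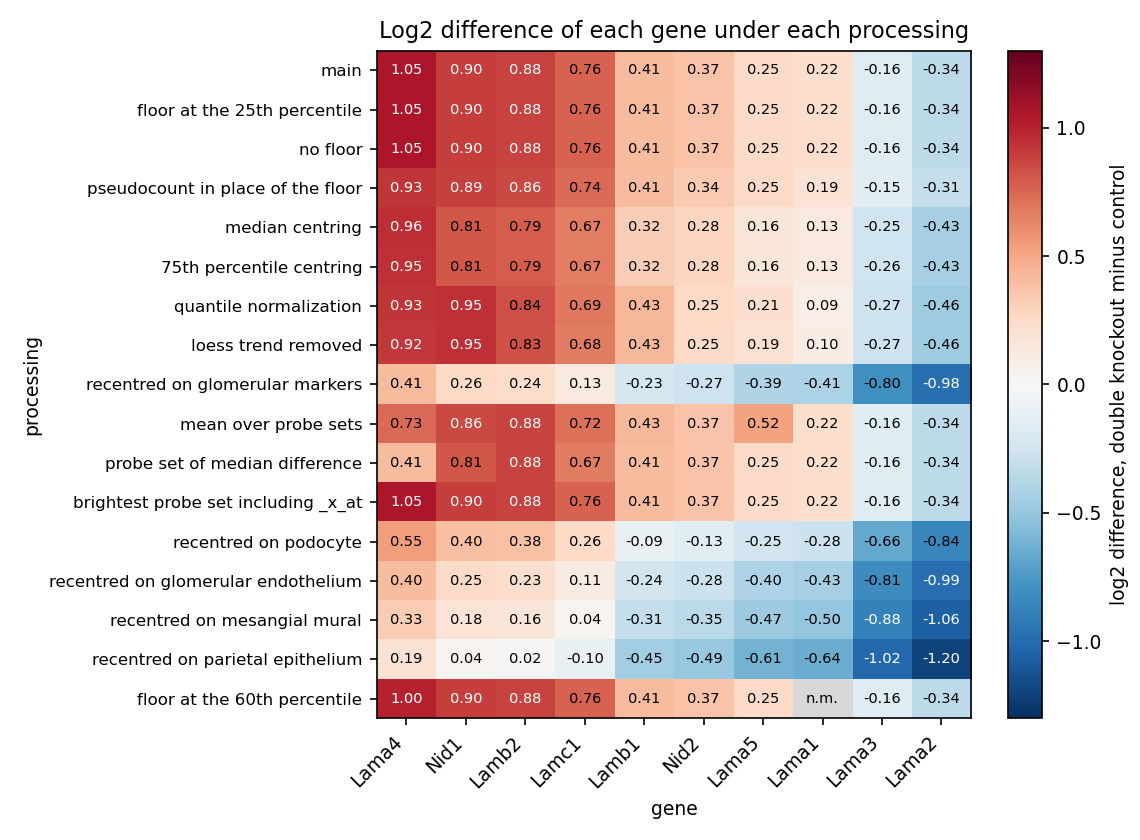
Log2 difference of each gene (columns, ordered by size), double knockout minus floxed control, under each processing (rows), printed in the cells and coloured on a scale from blue (lower) to red (higher), where n.m. means not measured and main is the processing used in the text. Lama4, Nid1 and Lamb2 are above 0 and Lama2 and Lama3 below 0 in every row shown, whereas Lama1, Lama5, Lamb1 and Nid2 are below 0 in the rows recentred on cell markers.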

How the data were processed

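The deposited values were 1 linear intensity per probe set for each of 2 arrays, made by the authors with MAS5 per the submitters' processing notes; the version is not given in the sources used here. After the lowest and highest 2% of values were left out, the mean intensity was 500.0 on both arrays. Arrays scaled in this way show each transcript relative to the rest of its sample. The number of arrays limits the precision.

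Gene symbols came from GEO's annotation of the platform, without the 64 control probe sets. Of the remainder, 34945 had 1 symbol, 932 several and 9160 none. All 10 members' gene identifiers matched the RefSeq table of GRCm38.p6. A gene was represented by its brightest probe set by mean log2 signal, without _x_at sets where another existed, and counted as measured if either array reached the floor. Differences are log2 of double knockout over control after the floor; genes were counted at 2-fold. Percentiles among 500 genes of like signal are descriptions. Of 160 listed genes, 148 were named. Every member, the other laminin chains, and of each pathway list the genes past 2-fold or else the 4 largest differences were named. Members, lists and rules were chosen with earlier results of these data known. Alternatives changed the floor, a pseudocount of 32, scaling, probe set choice and the fold rule. Steps were tested on simulated data (Python 3.11.15, pandas 2.3.3, statsmodels 0.14.6).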

Additional observations from a re-analysis of the deposited data

How the results depend on the processing

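The median log2 difference of the 10 genes was 0.39, and it lay between 0.30 and 0.49 under the other floors, the pseudocount, removal of the loess trend, quantile normalization, centring on the 75th percentile or the median, the other probe set choices and, chosen after seeing the data, with every probe set counted on its own. Recentring on glomerular markers turned it to -0.25 by construction, since a constant was subtracted from every gene. Recentring on 1 marker list at a time, chosen after seeing the data, gave -0.11 (podocyte), -0.26 (endothelial), -0.33 (mesangial and mural) and -0.47 (parietal). These shift the median of all genes as well, from 0.07 to -0.57 with the pooled markers, and the gap between the members and all genes stayed at 0.32. Median centring moved the share of higher genes among all those past 2-fold from 55.1% to 38.6%. The count of 1 member at least 2-fold higher became 0 with the pseudocount, median or 75th percentile centring, quantile normalization, loess removal, recentring on the pooled markers or any 1 marker list, the mean over probe sets, the probe set of median difference and the 3-fold rule, and 4 with the 1.5-fold rule. It rests on Lama4 (0.92 after loess removal, 0.73 as the mean over probe sets). The count of 0 at least 2-fold lower became 1 with recentring on the mesangial and mural list (Lama2, -1.06). It became 2 on the parietal list (Lama2, -1.20, and Lama3, -1.02), and was 0 under the other alternatives. Of 13290 measured genes, 3034 were at least 2-fold lower with the mesangial and mural list and 4290 with the parietal list. Of 159 single gene values under 16 alternatives, 106 moved by less than 0.18, and 21 changed sign, all under recentring on markers. Lama1 was not measured with the floor at the 60th percentile. No paired analysis was possible because each group has 1 array.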
